A study of Mus musculus with 6 samples.

Results

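A set of 8 genes that make, package, take up or mark the monoamine transmitters of the midbrain was read out of 23282 gene entries in forebrain RNA of mice after acute water avoidance stress (WAS) or a control procedure. The 8 genes were Th, Ddc, Slc6a3, Slc18a2, En1 and Aldh1a1 for dopamine neurons and Tph2 and Slc6a4 for serotonin neurons. They were selected because an earlier look at the same counts had shown them high in some of the libraries labelled WAS. Their differences between the labelled groups are therefore given as a description, with no test. Of the 8 genes, 7 passed the filter on low counts, and Slc6a4 did not.

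The study compared forebrain transcripts of adult male C57BL/6J mice kept for 1 h on a small platform, either surrounded by water (WAS, n = 3) or in a container without water (control, n = 3). The labels name no allele or agent beyond the strain, and the mice were killed directly afterwards and gave 1 library each. The olfactory bulbs and the cerebellum were removed and a forebrain hemisphere was used, while the plane of the cut between forebrain and midbrain is not given in the sources used here. Libraries were made with QuantSeq, which reads the 3′ end of polyadenylated transcripts, so that a longer transcript does not give more reads.

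The column headings in the deposited tables of the libraries labelled WAS carried the letters WC, and those of the libraries labelled control carried WS, without a definition. Groups were taken from the sample labels, and every direction given here would turn if the labels were exchanged. Total counts lay between 9248520 and 10502029 per library. WAS replicates 1 and 3 stood apart from the other 4 libraries. The summed level of 6 thalamus markers was 671 and 572 CPM (counts scaled to a common library total) in them and between 279.9 and 291 CPM in the other 4. The summed level of 6 striatum markers was 128 and 286 CPM in them and between 775 and 1536 CPM in the others. For Th, Ddc, Aldh1a1, Tph2 and Slc18a2, fold changes with WAS replicate 2 as the only library labelled WAS are given beside the results, and Slc6a3 and En1 fell under the count filter in that fit.

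Dopamine is made from tyrosine by tyrosine hydroxylase, which yields L-DOPA, and by aromatic L-amino acid decarboxylase, which turns L-DOPA into dopamine. Serotonin is made from tryptophan by tryptophan hydroxylase and the same decarboxylase. Both transmitters are loaded into vesicles by a shared vesicular transporter and are taken back from the synaptic cleft by a plasma membrane transporter of their own. The cell bodies of most brain dopamine neurons lie in the ventral midbrain, and those of serotonin neurons lie in the raphe nuclei of the midbrain and hindbrain, while their axons reach the forebrain. The forebrain holds smaller dopamine cell groups in the hypothalamus, but serotonin cell bodies are not a regular part of it.

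All 8 genes were found in the RefSeq promoter table, with 10 windows of 250 bases before to 50 bases after a start site on GRCm38.p6. Windows of the members were searched on both strands for 4 short motifs, since Th, Ddc and Slc18a2, which act along the same route, varied across the same libraries to different degrees. The cAMP response element TGACGTCA was in the windows of Th and Slc18a2, in 1.79% of all 32851 windows, and the NR4A motif AAAGGTCA was in the window of Ddc, in 1.51% of all windows. These sites are shown with the motif in capitals, read along the strand of the gene. The Ddc site carries the reverse complement of the motif. They lie on the minus strand at chr7:142900023-142900050 for Th and at chr11:11898200-11898227 for Ddc, and on the plus strand at chr19:59260864-59260891 for Slc18a2.
Th: agaggggcttTGACGTCAgcctggcctt
Slc18a2: gcgctgtccgTGACGTCAgagccggact
Ddc: ctacacgcctTGACCTTTataccagcag
The homeodomain core TAATTA was in none of the members' windows and in 5.29% of all windows. The TATA box core TATAAA was in 2 of the 10 windows, those of Tph2 and Ddc, and in 13.6% of all windows. In the Ddc site shown, a TATAAA on the opposite strand overlaps the NR4A motif. A match describes the letters in the window and does not show binding.

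Th encodes tyrosine hydroxylase, the rate-limiting enzyme of dopamine synthesis (chr7:142892752-142931128, minus strand, mm10). WAS replicates 1, 2 and 3 held 75, 43 and 146 Th counts, and control replicates 1, 2 and 3 held 13, 19 and 34. All 3 libraries labelled WAS lay above all 3 labelled control, by a small margin between WAS replicate 2 and control replicate 3, at 4.60 and 3.49 CPM. The group levels were 8.80 CPM ± 5.08 (SD, n = 3) and 2.20 CPM ± 1.16 (SD, n = 3), a log2 fold change of 2.01 (SE 0.46). The log2 fold change was 1.06 with WAS replicate 2 as the only library labelled WAS. Because these are bulk samples, a different number of cells of a type and a different amount of RNA per cell cannot be told apart. This holds for every gene given here.

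Ddc encodes aromatic L-amino acid decarboxylase, which serves the dopamine and the serotonin route (chr11:11814101-11898144, minus strand). It had 276, 130 and 456 counts in the WAS-labelled libraries against 99, 98 and 81 in the control-labelled ones. The groups did not overlap, and WAS replicate 2 was again the lowest of its group. The levels were 28.7 CPM ± 15.7 (SD, n = 3) and 9.11 CPM ± 0.689 (SD, n = 3), a log2 fold change of 1.66 (SE 0.33). The spread among the libraries labelled WAS was thus far wider than among the controls. With WAS replicate 2 alone the log2 fold change was 0.60.

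Tph2 encodes the neuronal tryptophan hydroxylase, the first enzyme of serotonin synthesis (chr10:115078641-115185022, minus strand). It had 7, 3 and 102 counts in the WAS-labelled libraries against 13, 7 and 7 in the control-labelled ones. A single library, WAS replicate 3, carried the higher group level, and the other 2 lay within or below the control range. The levels were 3.70 CPM ± 5.54 (SD, n = 3) and 0.880 CPM ± 0.310 (SD, n = 3), a log2 fold change of 2.06 (SE 0.99). Without WAS replicate 3 the log2 fold change was -0.78, and with WAS replicate 2 alone it was -1.43.

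Slc18a2 encodes the vesicular monoamine transporter VMAT2, which fills vesicles with dopamine, serotonin, noradrenaline and histamine (chr19:59260896-59296012, plus strand). Its counts were 119, 96 and 275 in the WAS-labelled libraries against 108, 102 and 103 in the control-labelled ones. WAS replicate 3 was high, and the other 5 libraries lay between 9.98 and 11.7 CPM. The group levels were 16.4 CPM ± 9.40 (SD, n = 3) and 10.3 CPM ± 0.302 (SD, n = 3), a log2 fold change of 0.67 (SE 0.31) that was 0.09 without WAS replicate 3 and -0.0071 with WAS replicate 2 alone.

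Slc6a3 encodes the dopamine transporter DAT, which returns dopamine to the neuron that released it (chr13:73536747-73578672, plus strand). It had 107, 0 and 100 counts in the WAS-labelled libraries against 0, 3 and 3 in the control-labelled ones. The gene was thus plainly present in WAS replicates 1 and 3 and at or near 0 in the other 4 libraries, with WAS replicate 2 among the latter. The levels were 6.79 CPM ± 5.89 (SD, n = 3) and 0.201 CPM ± 0.174 (SD, n = 3). The ratio of the summed counts, scaled by library size, was 35.4, with an exact 95% interval of 16.0 to 97.7. A count of 0 allows up to 3 counts, and these intervals and floors cover counting error only, because the reads carry no molecular identifiers.

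Slc6a4 encodes the serotonin transporter SERT, the target of serotonin reuptake inhibitors (chr11:76998603-77032340, plus strand). It had 14, 0 and 97 counts in the WAS-labelled libraries and 0 counts in every control. Against a floor of 3 counts in each control library, the level in WAS replicate 3 was at least 32.4-fold higher and that in WAS replicate 1 at least 4.64-fold higher. WAS replicate 2 was at 0 like the controls. Slc6a4 and Tph2 thus shared their highest library, while the next highest was WAS replicate 1 for Slc6a4 and control replicate 1 for Tph2.

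En1 encodes engrailed 1, a homeodomain factor of the midbrain and anterior hindbrain that midbrain dopamine neurons keep in adult life (chr1:120602418-120607992, plus strand). It had 124, 1 and 157 counts in the WAS-labelled libraries and 0 counts in every control. The groups were apart by a single read, that of WAS replicate 2. Against the floor of 3 counts per control library, WAS replicate 1 was at least 41.1-fold higher and WAS replicate 3 at least 52.5-fold higher.

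Aldh1a1 encodes a retinaldehyde dehydrogenase that also oxidises the aldehyde of dopamine and marks a ventral subset of substantia nigra neurons (chr19:20492715-20643465, plus strand). Its counts were 427, 201 and 413 in the WAS-labelled libraries against 257, 203 and 173 in the control-labelled ones. WAS replicates 1 and 3 were high, and WAS replicate 2 lay within the control range. The levels were 34.7 CPM ± 11.5 (SD, n = 3) and 20.7 CPM ± 3.43 (SD, n = 3), a log2 fold change of 0.75 (SE 0.23). It was 0.05 with WAS replicate 2 alone.

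**Figure D1:**
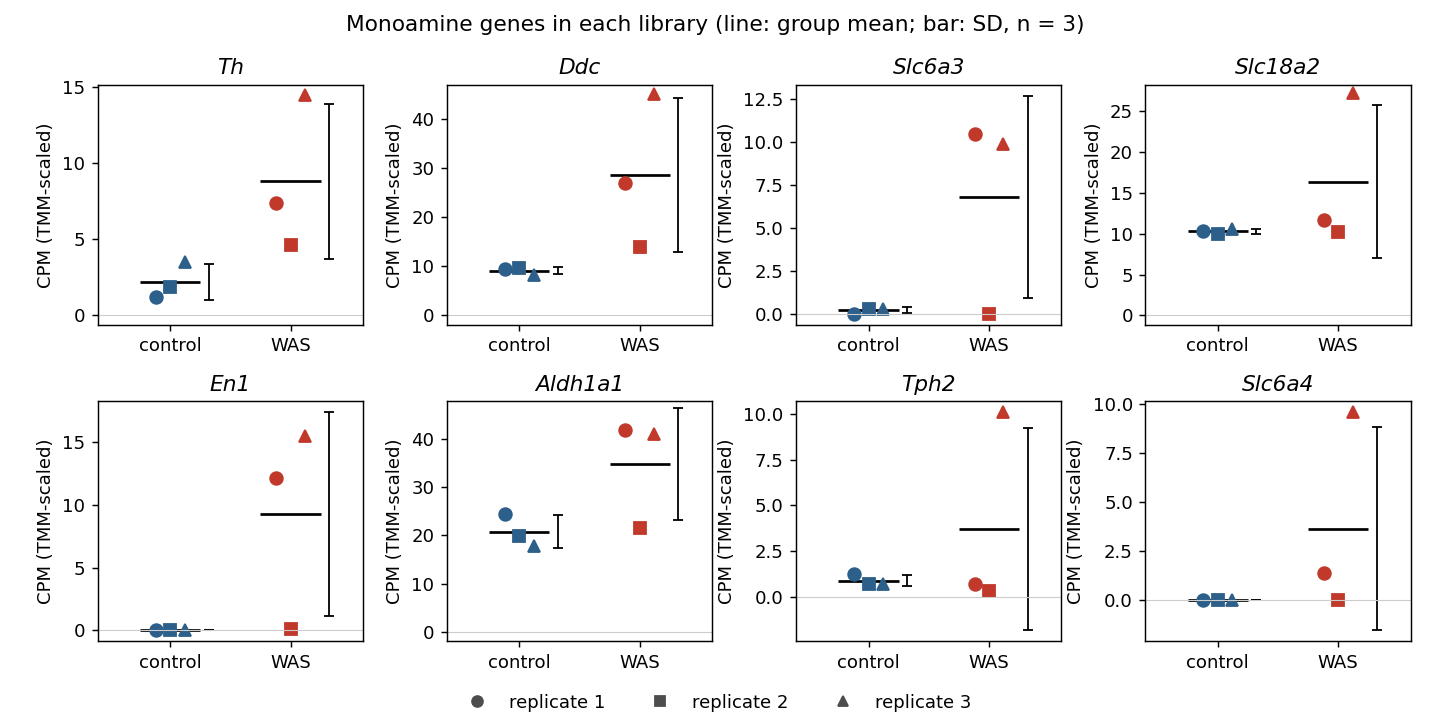
CPM after TMM scaling (y axis) of each of the 8 genes in the libraries labelled control and WAS (x axis), with symbols for the replicate number, a line at the group mean and a bar for the SD (n = 3). WAS replicate 3 was the highest library for 6 of the 8 genes, and WAS replicate 2 was the lowest of the libraries labelled WAS for each gene.

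The groups did not overlap for Th, Ddc and En1, 3 of the 8 genes, and over all 15239 genes tested they did not overlap for 11.7%. No inference is drawn from this count, since the genes were chosen on the same contrast. A gene was called when its fold change was at least 1.5 and its unadjusted p under 0.05, and 2.49% of all genes tested were called, 1.82% as higher and 0.676% as lower. The edgeR quasi-likelihood F test with Benjamini-Hochberg adjusted p under 0.05 passed 0%, with 1104 genes at an unadjusted p under 0.05 and 22 genes past the adjusted threshold with DESeq2. Around the lower edge of the count filter stood Tph2, which passed with 3 to 102 counts, and Slc6a4, which did not with 0 to 97 counts.

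The order of the levels differed between the groups. In the controls, Aldh1a1 was highest at 20.7 CPM, followed by Slc18a2 at 10.3 CPM and Ddc at 9.11 CPM. Ranges of Slc18a2 and Ddc did not overlap among the controls, at 9.98 to 10.6 CPM and 8.32 to 9.58 CPM. Th at 2.20 CPM and Tph2 at 0.880 CPM came next and met at 1.24 CPM in control replicate 1, and Slc6a3, En1 and Slc6a4 were at or under the floor of 3 counts. In the libraries labelled WAS, Aldh1a1 at 34.7 CPM and Ddc at 28.7 CPM led, and each gene overlapped its neighbours in the order over the 3 libraries.

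**Figure D2:**
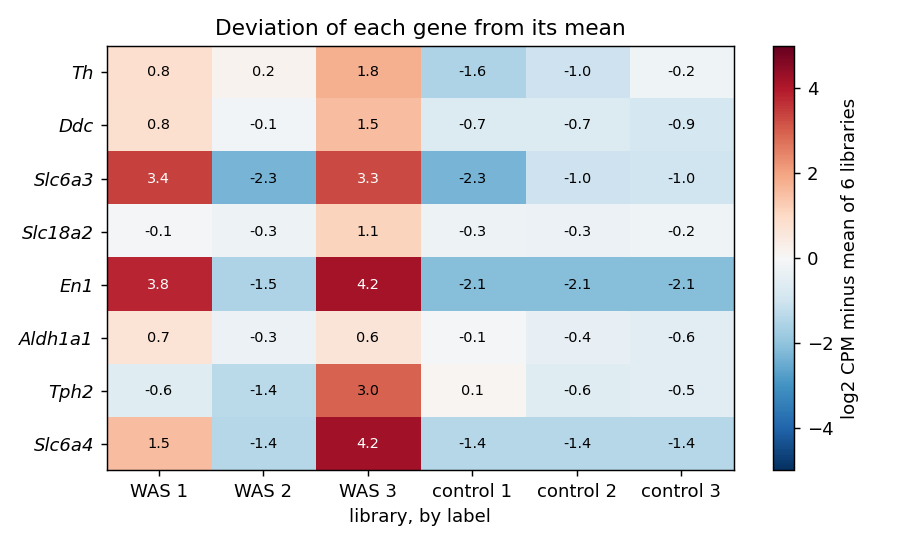
Deviation of log2 CPM (prior count 2) from the mean over the 6 libraries, for each of the 8 genes (rows) in each library (columns), with the value in each cell. Slc6a3 and En1 deviated upward by 3.3 to 4.2 in WAS replicates 1 and 3, and Tph2 and Slc6a4 deviated most in WAS replicate 3.

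Ratios within a library do not depend on its depth. Ddc counts per Th count were 3.68, 3.02 and 3.12 in the WAS-labelled libraries 1, 2 and 3, against 7.62, 5.16 and 2.38 in the controls. The ratio was thus more even among the libraries labelled WAS, and the ranges of the groups overlapped. Slc18a2 counts per Th count were 1.59, 2.23 and 1.88 in the WAS-labelled libraries against 8.31, 5.37 and 3.03 in the controls. Here all libraries labelled WAS lay below all controls, so that Th differed more between the groups than Slc18a2 did.

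Slc6a3 and Th did not keep to a fixed proportion. The ratio of Slc6a3 to Th was 1.43 in WAS replicate 1 (exact 95% interval 1.05 to 1.94) and 0.685 in WAS replicate 3 (0.526 to 0.889). Their intervals did not overlap. In WAS replicate 2 the ratio was 0 beside 43 Th counts, with an upper bound of 0.0896, and in the controls it was 0, 0.158 and 0.0882. Th transcripts were therefore counted in WAS replicate 2 and the controls with few or no Slc6a3 transcripts beside them, whereas both were counted in WAS replicates 1 and 3.

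Tph2 and Th did not keep to a fixed proportion either. For each Th count, WAS replicates 1, 2 and 3 held 0.0933, 0.0698 and 0.699 Tph2 counts, and the controls held 1, 0.368 and 0.206. Slc6a4 counts per Tph2 count were 2 in WAS replicate 1 (exact 95% interval 0.755 to 5.86) and 0.951 in WAS replicate 3 (0.713 to 1.27). The intervals of these 2 libraries overlapped. In the controls, 27 Tph2 counts in all stood beside no Slc6a4 count.

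**Figure D3:**
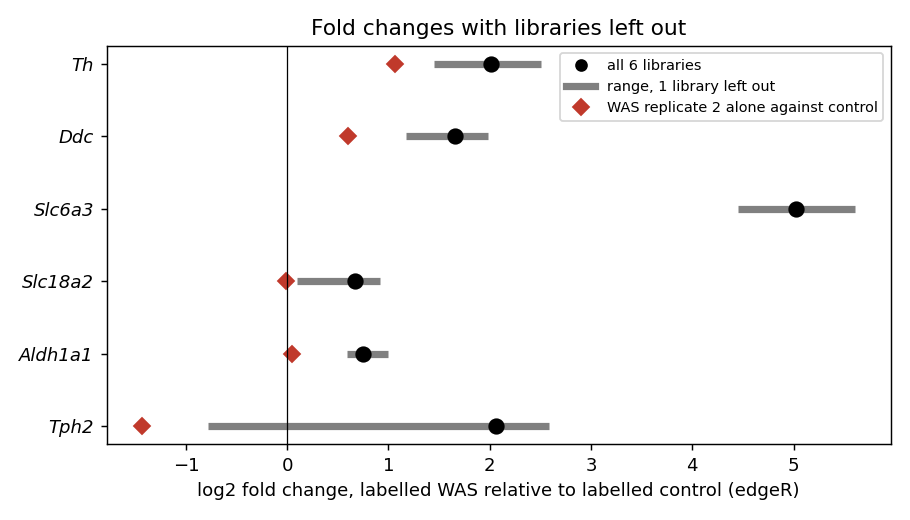
Log2 fold change, libraries labelled WAS relative to those labelled control, of 6 of the 8 genes with all libraries (point), with 1 library left out at a time (bar) and with WAS replicate 2 as the only library labelled WAS (diamond). En1 is not drawn because its controls were at 0, and Slc6a4 is not drawn because it did not pass the count filter. Slc6a3 has no diamond. The bar of Tph2 ran from -0.78 to 2.59, while those of the other 5 genes stayed above 0.

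Leaving out 1 library at a time moved the log2 fold change of Th between 1.45 and 2.50 and that of Ddc between 1.17 and 1.98. The lowest value of each came without WAS replicate 3. That of Aldh1a1 moved between 0.59 and 1.00, with the lowest value without WAS replicate 1, and that of Slc18a2 between 0.09 and 0.92. The log2 fold change of Slc6a3 moved between 4.45 and 5.61, and it was 3.12 with limma on quantile-normalized log2 counts.

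Genes outside the 8 were ranked by how closely their log2 CPM, centred on the mean of the 6 libraries, followed the average of the 6 dopamine genes, among 11153 genes at a mean of 5 CPM or more. The closest were Slc17a6, Cpne7, Fibcd1, Tcf7l2 and Tspan18. Their mean absolute differences from the average were 0.31, 0.36, 0.38, 0.40 and 0.54 log2 units, and those of the dopamine genes themselves ran from 0.45 for Ddc to 1.43 for En1. Slc17a6, the vesicular glutamate transporter VGLUT2, had 1710, 284 and 1339 counts in the WAS-labelled libraries against 402, 304 and 273 in the control-labelled ones. Tcf7l2, a transcription factor abundant in the thalamus, had 2357, 388 and 1729 counts against 384, 214 and 383. For both, WAS replicates 1 and 3 were high and WAS replicate 2 lay within or just above the control range, as for Slc6a3 and En1. The end of the Tspan18 transcript shares 50-base stretches with transcripts of 516 other genes, so that its counts are uncertain.

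The same ranking against the average of Tph2 and Slc6a4 gave Shisa6, Tspan18, Slc17a6, Nr2f2 and Fibcd1, at mean absolute differences of 0.74, 0.74, 0.75, 0.80 and 0.81 log2 units. Tph2 and Slc6a4 themselves were each 0.56 from their average. They make up that average, so their distances are equal by construction and are no like measure beside those of the other genes. Shisa6, which encodes an auxiliary protein of AMPA receptors, had 144, 54 and 239 counts in the WAS-labelled libraries against 77, 53 and 75 in the control-labelled ones. Nr2f2, an orphan nuclear receptor also named COUP-TFII, had 1368, 591 and 1842 counts against 577, 468 and 717. Both were highest in WAS replicate 3 and next highest in WAS replicate 1.

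Genes of the monoamine pathways beyond the 8 were counted in 7 lists, which hold 55 genes in the files. These lists too were drawn up with earlier results of these data known. Of the 39 genes tested, 10 (25.6%) were called higher in the libraries labelled WAS, against 1.82% of all genes tested. Called lower were 0 of the 39, against 0.676% of all genes tested. The median log2 fold change was 0.33, against 0.00088 over all genes tested. With the edgeR quasi-likelihood F test, 0 of the 39 passed a Benjamini-Hochberg adjusted p of 0.05, 12 had an unadjusted p under 0.05, and DESeq2 gave 0 as well. Without WAS replicate 2, 7 passed the adjusted threshold (Drd1, Nr4a2, Gata3, En2, Ret, Chrna6 and Sncg), and 0 passed under each other alternative run. The count of 10 fell to 5 without WAS replicate 1, to 4 without WAS replicate 3, and to 4 without control replicate 2. It was 2 with WAS replicate 2 alone, with Drd1 higher and Gata3 lower, and 16 without WAS replicate 2, with Drd1 and Slc17a8 lower. With limma on quantile-normalized log2 counts it was 2, the genes Lmx1a and Slc22a2, and DESeq2 did not call Gata3 and Chrna6.

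The list of other dopamine neuron genes held 6 of the 10, among 13 tested of 19, and its median log2 fold change was 1.04. The median was 0.55 without control replicate 2, 0.55 with edgeR's own filter on low counts and -0.08 with WAS replicate 2 alone. Most of these encode factors or receptors of dopamine neuron development and survival. Lmx1a, a factor that specifies midbrain dopamine progenitors, had 8, 16 and 9 counts in the WAS-labelled libraries against 3, 0 and 1 in the control-labelled ones. Its log2 fold change was 2.98 (SE 0.82, adjusted p = 0.514 from the edgeR quasi-likelihood fit). It was the only one of the 6 whose groups did not overlap, and it was highest in WAS replicate 2, the library in which Slc6a3 was at 0. Without WAS replicate 2, and with edgeR's own filter on low counts, Lmx1a fell under the filter and was not tested. En2, the second engrailed gene, had 29, 3 and 33 counts against 6, 0 and 2, with a log2 fold change of 2.98 (SE 0.92, adjusted p = 0.539 from the edgeR quasi-likelihood fit). Like En1, it was high in WAS replicates 1 and 3 alone, and it too was not tested with edgeR's own filter. Nr4a2, also named Nurr1, is required for dopamine neurons and is also expressed in cortex. It had 2901, 1338 and 2797 counts against 1521, 1592 and 1450, with a log2 fold change of 0.65 (SE 0.20, adjusted p = 0.539 from the edgeR quasi-likelihood fit). WAS replicate 2 was the lowest of the 6 libraries for Nr4a2, and the call ended without WAS replicate 1 or 3, where the fold change fell under the threshold.

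Ret, the receptor for GDNF family ligands, had 33, 7 and 37 counts in the WAS-labelled libraries against 8, 6 and 10 in the control-labelled ones. Chrna6, a nicotinic receptor subunit of dopamine neurons, had 38, 0 and 27 against 5, 0 and 4. Sncg, gamma-synuclein, had 52, 13 and 61 against 16, 9 and 27. The 3 genes were high in WAS replicates 1 and 3 and had log2 fold changes of 1.68 (SE 0.58), 2.81 (SE 1.09) and 1.28 (SE 0.54). Their calls ended without WAS replicate 3, at unadjusted p of 0.0696, 0.0633 and 0.164 from the edgeR quasi-likelihood fit. Ret and Chrna6 were also not called without control replicate 2, Chrna6 without control replicate 3, and Sncg without WAS replicate 1 or control replicate 1 or 2. Chrna6 fell under the filter on low counts, and was not tested, without WAS replicate 1 and with edgeR's own filter.

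The 7 tested genes of that list that were not called included Sox6, with 31.8 CPM in the controls and a log2 fold change of 0.09 (SE 0.11), and Kcnj6, at -0.20 (SE 0.17). The other 6 of the 19 were not tested. Among these, Foxa2, a factor that dopamine neurons need to form, had 19, 0 and 9 counts in the WAS-labelled libraries against 0 in the controls. Pitx3, a defining factor of midbrain dopamine neurons, had at most 1 count in any library, and Lmx1b had 0 in all 6. Drd2, the D2 dopamine receptor of dopamine neurons and striatum, had at most 1 count in any library although Drd1 had 350 to 3380. A count near 0 in these tables is thus no measure of the absence of a transcript.

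Of 7 tested genes among 10 other serotonin neuron genes, 1 was called, beside 2.49% of all genes tested. The median log2 fold change of the list was 0.35, or 0.16 with WAS replicate 2 alone. Gata3, a factor of serotonin neurons and of midbrain GABA neurons, had 160, 0 and 143 counts in the WAS-labelled libraries against 26, 9 and 1 in the control-labelled ones. Its log2 fold change was 3.08 (SE 1.05, adjusted p = 0.585 from the edgeR quasi-likelihood fit). It was high in WAS replicates 1 and 3, like En1 and Slc6a3 and unlike Tph2. The call ended without control replicate 2 or control replicate 3, where the log2 fold change was still 2.91 and 2.56. Gata3 had no count in WAS replicate 2 and was called lower with that library alone. Fev, also named Pet1, the defining factor of serotonin neurons, was not tested, with 3, 1 and 11 counts against 0 in every control. Htr1a, an inhibitory serotonin receptor and autoreceptor, had an unadjusted p of 0.0467 from the edgeR quasi-likelihood fit and a log2 fold change of 0.47 (SE 0.21), under the fold threshold.

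Tetrahydrobiopterin is the cofactor of both hydroxylases. Of the 6 genes tested for its synthesis and recycling, 0 passed an unadjusted p of 0.05, and all 6 log2 fold changes were above 0, from 0.01 for Pts to 0.76 for Gch1. Qdpr, the most abundant, lay at 272 CPM ± 23.5 (SD, n = 3) and 251 CPM ± 20.0 (SD, n = 3). Its transcript end overlaps Gm42413 on the opposite strand, so that its counts are uncertain.

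Of the 9 tested genes for monoamine breakdown and secondary uptake, 2 were called, beside 2.49% of all genes tested. Slc22a2 and Slc29a4 encode low-affinity organic cation carriers, OCT2 and PMAT, that take up monoamines. Slc22a2 had 21, 16 and 24 counts in the WAS-labelled libraries against 10, 9 and 7 in the control-labelled ones, with no overlap and a log2 fold change of 1.25 (SE 0.42, adjusted p = 0.582 from the edgeR quasi-likelihood fit). With WAS replicate 2 alone, Slc22a2 was not called (log2 fold change 0.99, unadjusted p = 0.168 from the edgeR quasi-likelihood fit). Slc29a4 had 58, 41 and 87 against 25, 13 and 55, which overlap, and its call ended when any of WAS replicates 1 and 3 and control replicates 1 and 2 was left out. Maoa, Maob and Aldh2, which break monoamines down, had log2 fold changes between 0.04 and 0.14.

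Among the remaining lists, Drd5, the D5 dopamine receptor, was called, with 82, 32 and 51 counts in the WAS-labelled libraries against 42, 30 and 22 in the control-labelled ones. Its log2 fold change was 0.84 (SE 0.36), and its call ended without WAS replicate 1 or 3 or control replicate 2 or 3. Drd1, the D1 receptor of striatal neurons, had a log2 fold change of -0.62 (SE 0.62), which was -2.31 without WAS replicate 2 and 0.63 with that library alone. With the replicate number as a block it was -1.35 and Drd1 was called lower. With limma on quantile-normalized log2 counts it was -1.31 and Drd1 was not called. Hnmt, which inactivates histamine, had an unadjusted p of 0.0287 from the edgeR quasi-likelihood fit and a log2 fold change of -0.28 (SE 0.11), under the fold threshold, and all its libraries labelled WAS lay below the controls. Of 5 noradrenaline and adrenaline genes, only Phox2a could be tested, at -0.17 (SE 0.17), and its transcript end overlaps Inppl1 on the opposite strand. Dbh, which makes noradrenaline, had 0, 0 and 4 counts in the WAS-labelled libraries against 3, 3 and 8 in the control-labelled ones.

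**Figure D4:**
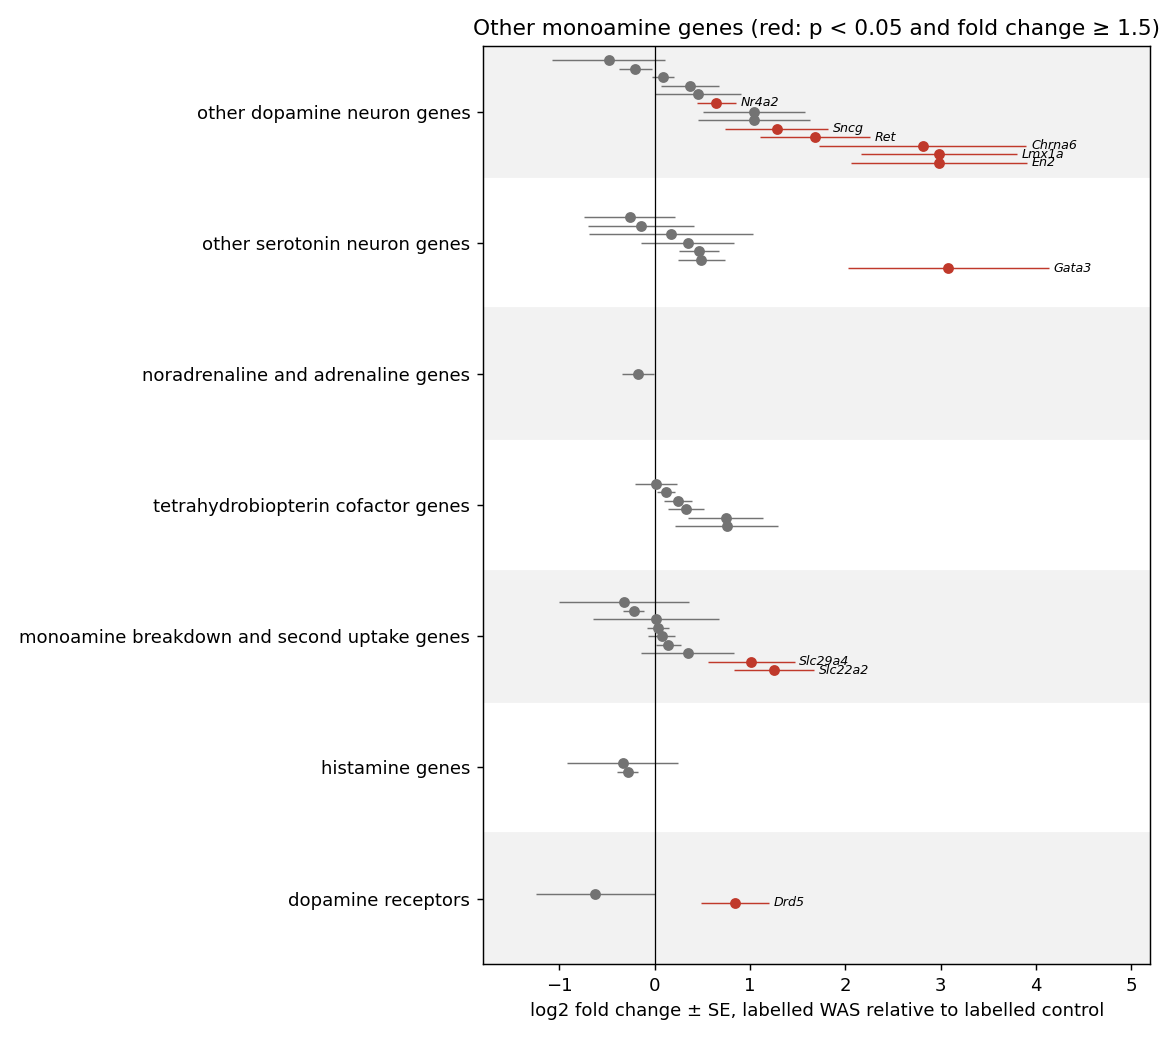
Log2 fold change, libraries labelled WAS relative to those labelled control, with its SE (x axis), for the tested genes of the 7 lists of other monoamine genes (y axis). Red points with a name are the 10 genes called (unadjusted p under 0.05, fold change of 1.5 or more), all of them above 0.

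Markers of brain regions and other cells were summed in each library beside these results. For 9 genes of midbrain neurons that use no monoamine, the sums were 48.4, 18.9 and 58.3 CPM in the WAS-labelled libraries against 23.7, 18.0 and 21.9 CPM in those labelled control. Of the 5 tested, 3 were called higher, against 1.82% of all genes tested. The sum was thus high in WAS replicates 1 and 3, although Cartpt was below every control in WAS replicate 1 and Barhl2 was lowest there among the libraries labelled WAS. In WAS replicates 1 and 3 the 6 dopamine genes summed to 111 and 153 CPM against 40.5 to 50.4 CPM in the other 4 libraries. Of the 6 thalamus markers, 3 were called higher, and 0 of the 6 striatum markers were called in either direction. The sums of the 6 cortex markers were 671 to 740 CPM in the WAS-labelled libraries against 806 to 903 CPM in those labelled control, with 1 gene called lower.

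The serotonin pair summed to 2.06, 0.321 and 19.7 CPM in the WAS-labelled libraries against 0.685 to 1.24 CPM in the controls. For 9 hindbrain genes the sum was 1.88 CPM in WAS replicate 3 and 0 to 0.286 CPM in the other 5 libraries, and Hoxa5, Hoxb2 and Slc6a5 were at 0 in all 6. The highest library was thus the same as for Tph2 and Slc6a4. The 6 cerebellum markers summed to 39.3 to 53.8 CPM over all libraries. Of the 5 tested, 2 were called higher, against 1.82% of all genes tested. Gabra6, which marks cerebellar granule cells, had at most 1 count. The 4 olfactory bulb markers summed to 4.85 to 9.35 CPM, and the 5 choroid plexus markers to between 15.8 and 1230 CPM, low in WAS replicate 1 and control replicate 2. Of the genes listed for habenula, hypothalamus, astrocytes, oligodendrocytes, microglia, endothelium and blood, 0 were called, and the 3 pituitary genes were not tested. The part of these regional differences in the levels of the 8 genes was not tested.

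**Figure D5:**
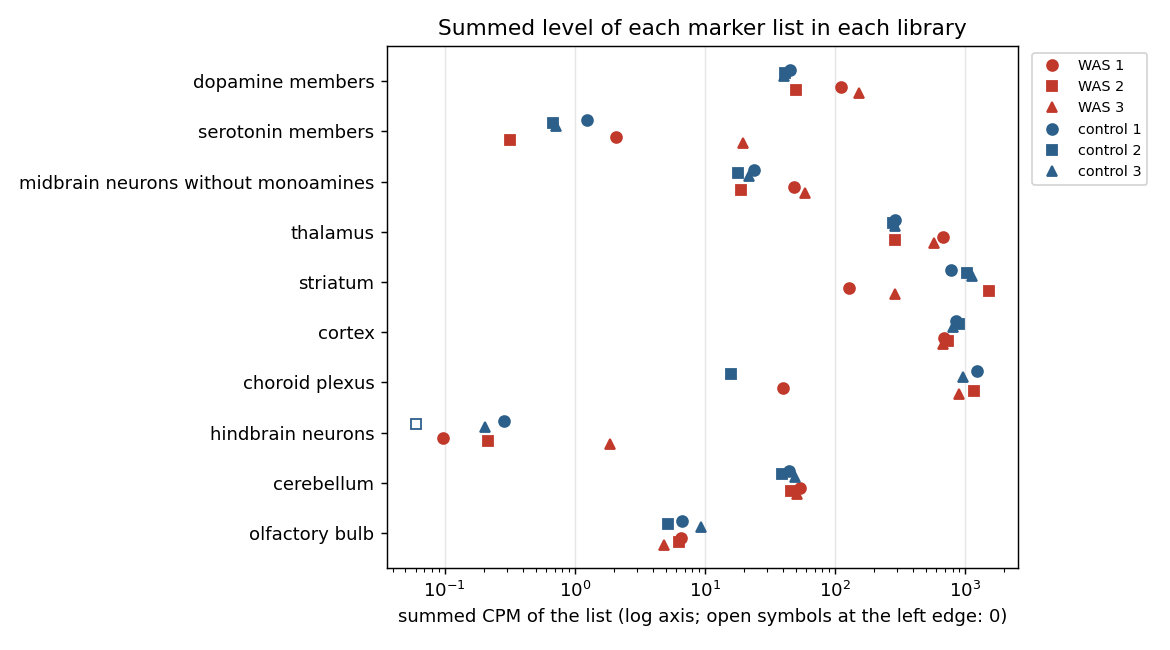
Summed CPM (log x axis) of the dopamine and serotonin genes and of 8 lists of regional markers (y axis) in each of the 6 libraries, with an open symbol at the left edge for a sum of 0. The dopamine genes, the midbrain list and the thalamus list were each highest in WAS replicates 1 and 3, and the striatum list was lowest there.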

How the data were processed

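The authors made the deposited counts, whole numbers per gene symbol, from QuantSeq 3′ reads with Bowtie2 and Bedtools. The submitters' processing notes name the build mm10. Unique and multiple alignments were counted. For all 8 members, the last 500 bases of their GENCODE M21 transcripts share no 50-base stretch with another gene and overlap no other gene's exon. The 8 members and all gene lists and motifs were chosen with earlier results of these data known.

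The main test was the quasi-likelihood F test (edgeR 4.0.16, R 4.3.3) on TMM-scaled counts, with no replicate term, over the 15239 of 23282 entries with a mean log2(quantile-normalized count + 1) of at least 2, after the cutoff in the study's methods. CPM are counts scaled to a common total after TMM. Adjusted p-values (Benjamini-Hochberg) span all genes tested. The floor was 3 counts per library, and intervals of ratios of counts are exact binomial ones at 95%.

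Named beside the members were, per pathway list, genes at an unadjusted p under 0.05 or, where none, the most abundant, and the 5 genes most like each member group. The other genes named were chosen after their values were seen. Alternatives were total-count scaling, DESeq2 1.42.0, limma 3.58.1 on quantile-normalized log2 counts, 2 other filters, leaving out each library, and a replicate block. WAS replicate 2 as the only library labelled WAS, which leaves that group to borrow its spread from the controls, was chosen after seeing the data. The test was also run on simulated counts, whose outcome is not given here.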

Additional observations from a re-analysis of the deposited data

How the results depend on the processing

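Total-count scaling and the 2 other filters left the 380 genes called, and the counts derived from them, within 1.5 times. With 1 library left out, the genes called ranged from 264 to 825, the genes past an adjusted p of 0.05 from 0 to 491 and the listed pathway genes called from 4 to 16, each highest without WAS replicate 2. Against 0 in edgeR, the genes past an adjusted p of 0.05 were 22 with DESeq2, 49 with the replicate block and 1 with WAS replicate 2 as the only library labelled WAS. Against 10, the listed pathway genes called were 2 with limma on quantile-normalized log2 counts, which called 220 genes higher and 193 lower where edgeR called 277 and 103, and 2 with WAS replicate 2 alone. The cause of these shifts was not tested. The log2 fold change of Tph2 ranged from -0.78 to 2.59 with 1 library left out and was -1.43 with WAS replicate 2 alone, and that of Slc18a2 was -0.0071 with WAS replicate 2 alone. With limma, that of Tph2 was 0.58 and that of Slc6a3 3.12, against 2.06 and 5.03 in edgeR, and that of Tph2 was 1.15 with the replicate block. Among the alternative values of member fold changes, 5 kept their direction but moved by more than the SD of log2 CPM within groups, which is wide for these genes, and 10 alternative medians of the pathway lists moved past the like SD of the list.

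The labels do not say whether libraries with the same replicate number were paired. Deviations of same-numbered libraries from their group means correlated across genes at 0.066, 0.085 and 0.087. These values are low, but each library correlated best with its own number, which is a hint from the data only. With the replicate block, 417 genes were called against 380. Listed pathway genes called were 14 against 10, with Drd1 lower and the other 13 higher. Depth limits what can be said of En1, Slc6a3 and Slc6a4, whose controls were at or under 3 counts, and 3 libraries per group limit all of it.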
